A study of Mus musculus with 4 samples.

Results

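The small leucine-rich proteoglycans examined here were Dcn, Bgn, Aspn, Lum, Fmod, Prelp, Omd, Ogn and Podn, measured in cultured skin fibroblasts of newborn mice with and without ADAM9, a membrane-anchored metalloprotease. Members were the probe sets of the expression array whose annotation named exactly 1 of these 9 genes. That rule used no measured value, but the genes were chosen with earlier results of these data known. This gave 20 probe sets of 45037 that were not array controls, and 9 genes of 18193. A probe set is a group of short probes that together give 1 expression value for a transcript. The cells were primary dermal fibroblasts taken at postnatal day 1 from adam9 -/- mice (2 isolations) or adam9 +/+ mice (2 isolations), and 1 array was run per isolation. All cultures were untreated: equal numbers of cells were seeded in square 10 cm plates, grown for 48 h, and extracted for total RNA, which was labelled from its poly(A) end. The labels do not give the strain, the sex, the design of the deleted allele, or the number of animals behind an isolation, so the spread between isolations is all that the p-values measure.

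Members of this family are secreted proteins built around a run of leucine-rich repeats, and most carry glycosaminoglycan chains. They bind fibril-forming collagens in the dermis, where they set the width and spacing of the fibrils, and several also bind growth factors or cell-surface receptors. Decorin (Dcn), biglycan (Bgn) and asporin (Aspn) form class I, of which the first pair carry chondroitin or dermatan sulfate chains. Lumican (Lum), fibromodulin (Fmod), PRELP (Prelp) and osteomodulin (Omd) form class II, in which the chains of lumican and fibromodulin are keratan sulfate. Osteoglycin (Ogn) belongs to class III and podocan (Podn) to class V.

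The values are on a scale taken as log2, where 1 unit is a doubling, and ran from 1.7 to 14.37 over all probe sets. Adam9 gave 8.33 and 8.55 in the knockout isolations against 11.58 and 11.70 in the wild type (log2 difference -3.20, SE 0.15, limma adjusted p = 0.022). The arrays also differed in sex-linked genes as they differed in genotype, with Xist at 10.38 and 10.40 in the knockout and 4.29 and 4.32 in the wild type, and Eif2s3y at 2.75 and 2.67 against 9.19 and 9.31. The differences of Kdm5d and Uty, also on the Y chromosome, were -5.02 and -4.69. For every member, a difference by genotype therefore cannot be told apart from one that goes with sex-linked expression. Macrophage and leukocyte markers stood apart in wild-type isolation 1, where the median level of 17 genes was 8.44, while the other wild-type array had 4.35 and the knockout arrays 3.88 and 4.23. Wild-type isolation 2 stood apart in some fibroblast and smooth muscle markers, whose values are given beside the results they touch.

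None of the 20 member probe sets passed the genotype test. Over all 27022 probe sets tested, 14 passed at a limma adjusted p under 0.05 (0.0518%), 3 higher (0.0111%) and 11 lower (0.0407%) in the knockout. Xist was among the 3 higher, and Adam9 and the sex-linked genes Eif2s3y, Kdm5d and Uty were among the 11 lower. With median centring of the arrays the split was 6 higher and 11 lower, and with cyclic loess 5 and 11. All 20 members lay above the filter on dim probe sets, and their smallest adjusted p was 0.296. Before adjustment, 6 of the 20 had a limma p under 0.05, all of them Fmod probe sets, against 10.8% of all probe sets tested. The genotypes did not overlap in 7 members, all higher in the knockout, against 43.9% of all probe sets in either direction and 21.4% in that direction. The knockout stood above the wild type in 15 of 20 members (48.7% of all probe sets tested), with a median difference of 0.39 log2 units against -0.01 over all probe sets. These 20 values are not independent, since 6 come from Fmod, 3 from Bgn and 2 each from Dcn, Aspn, Prelp and Ogn.

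**Figure D1:**
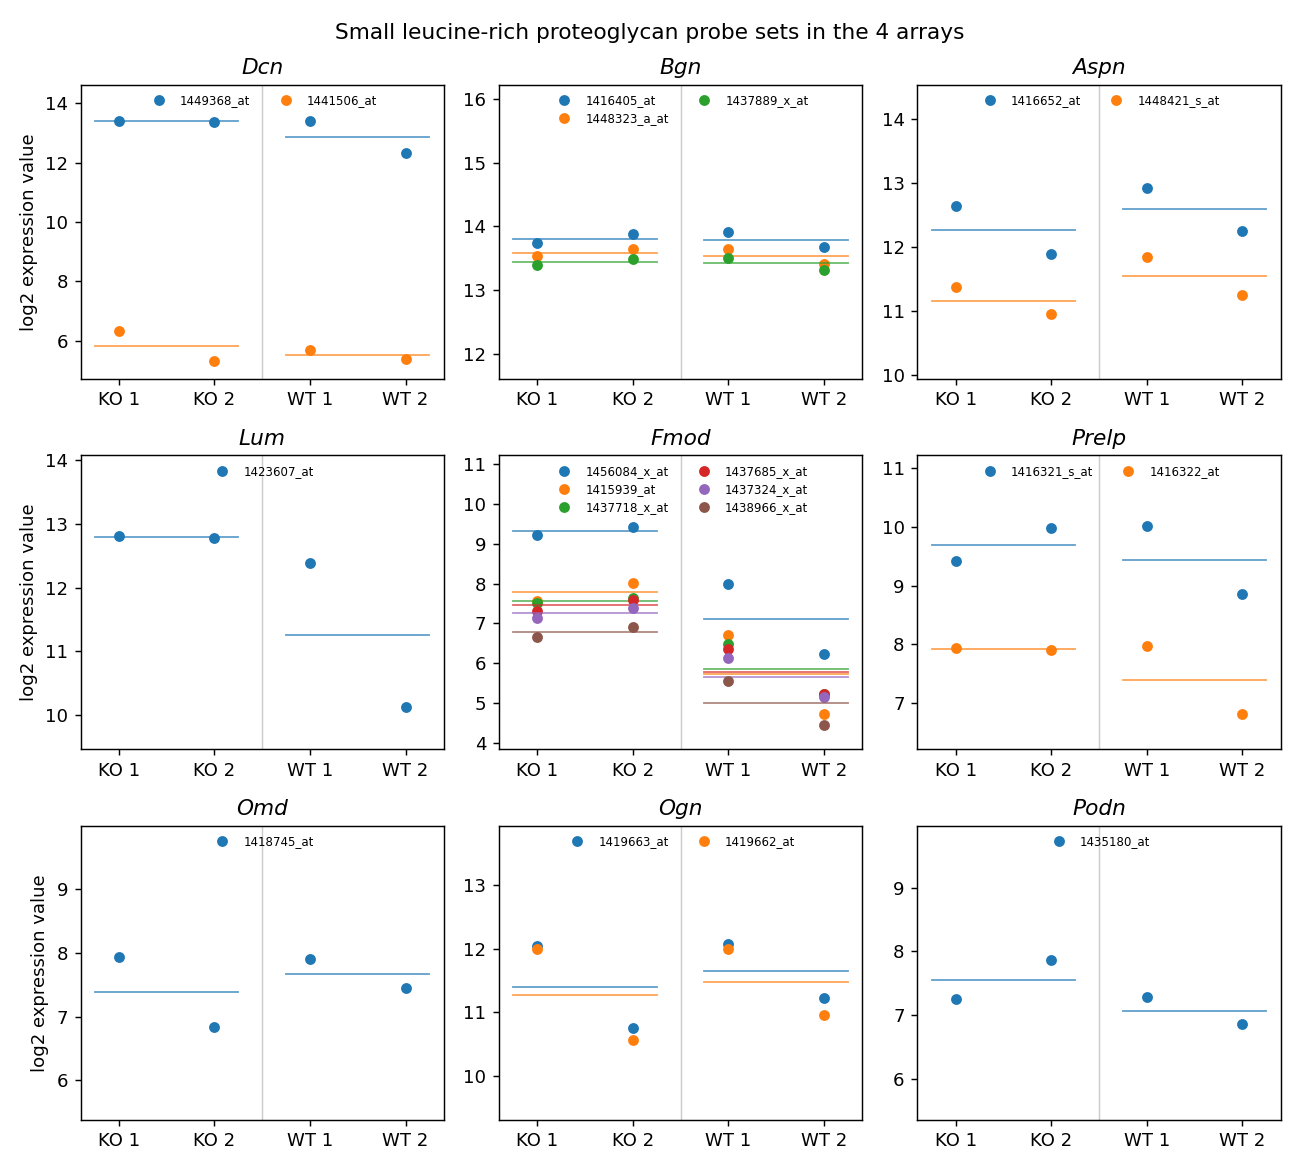
Log2 expression value (vertical axis) of each probe set of the 9 genes in knockout (KO) isolations 1 and 2 and wild-type (WT) isolations 1 and 2. Points are single arrays, colours are probe sets named in each panel, horizontal lines are genotype means over 2 arrays, and the vertical scale differs between panels. Lum stood at 10.13 in wild-type isolation 2 and at 12.38 to 12.81 in the other arrays, while the 3 Bgn probe sets ranged over 0.19 to 0.24 log2 units.

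Fibromodulin had the largest genotype difference among the 9 members, and its genotypes did not overlap at any of its 6 probe sets. Fibromodulin binds type I collagen and takes part in fibril growth and in cross-linking. The sequence before its transcription start is shown with that of Prelp, which is its neighbour on chromosome 1 and had its lowest value in the same array. Capitals mark matches on either strand to the CCAAT box, the TATAAA box, the TEAD motif GGAATG, the AP-1 motif TGANTCA (held by 6.75% of promoters) or the Smad motif CAGAC. Both stretches are the 250 bases before the start site, from RefSeq on GRCm38.p6, at chr1:134037004-134037253 on the plus strand for Fmod and chr1:133921402-133921651 on the minus strand for Prelp.
Fmod: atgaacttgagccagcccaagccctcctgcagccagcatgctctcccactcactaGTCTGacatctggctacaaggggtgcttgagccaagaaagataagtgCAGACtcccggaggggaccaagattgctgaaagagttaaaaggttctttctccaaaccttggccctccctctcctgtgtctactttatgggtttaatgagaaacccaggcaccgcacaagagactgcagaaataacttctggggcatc
Prelp: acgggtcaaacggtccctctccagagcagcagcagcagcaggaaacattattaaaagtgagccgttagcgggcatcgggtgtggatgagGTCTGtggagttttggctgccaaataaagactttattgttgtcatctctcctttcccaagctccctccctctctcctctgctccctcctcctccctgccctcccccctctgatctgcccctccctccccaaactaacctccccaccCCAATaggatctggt
CAGAC was found 2 times before Fmod and 1 time before Prelp, and 42.2% of the 32851 promoters of the same length held it. CCAAT was found at position -15 from the Prelp start and in 33.8% of all promoters. A match is a description of letters and says nothing of binding.

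Among the Fmod probe sets, 1456084_x_at gave 9.22 and 9.41 in knockout isolations 1 and 2, and 7.98 and 6.23 in wild-type isolations 1 and 2. Its means were 9.31 ± 0.137 (SD, n = 2) in the knockout and 7.11 ± 1.24 (SD, n = 2) in the wild type, a 4.62-fold difference (2.21 log2 units, SE 0.597, limma adjusted p = 0.357). The spread was thus small between the knockout arrays and large between the wild-type arrays. The probe set 1415939_at, the only Fmod probe set without the suffix _x_at, which marks probes that may also match other transcripts, stood at 7.56 and 8.01 against 6.71 and 4.74 (2.05, SE 0.678, adjusted p = 0.417). It had the widest range of any member, 3.26 log2 units.

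The other 4 Fmod probe sets repeated that order of arrays. Values of 1437718_x_at were 7.50 and 7.63 in the knockout and 6.49 and 5.22 in the wild type. Those of 1437685_x_at were 7.32 and 7.60 against 6.36 and 5.22. In all of these, wild-type isolation 2 was lowest and wild-type isolation 1 lay between it and the knockout arrays. For 1437324_x_at they were 7.13 and 7.38 against 6.14 and 5.16, and for 1438966_x_at 6.67 and 6.90 against 5.57 and 4.45. Over the 6 probe sets the difference was 1.61 to 2.21 log2 units, with adjusted p from 0.296 to 0.417. They measure the same RNA on the same 4 arrays and are no replicates of each other.

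Lumican, a class II member that binds the same region of type I collagen as fibromodulin and keeps fibrils thin, had 1 probe set, 1423607_at. Its values were 12.81 and 12.78 in the knockout isolations and 12.38 and 10.13 in wild-type isolations 1 and 2. The genotypes did not overlap, yet wild-type isolation 1 lay 0.43 below knockout isolation 1 and 2.26 above wild-type isolation 2. The difference was 1.54 log2 units (2.90-fold, SE 0.755, limma adjusted p = 0.539), and without wild-type isolation 2 it was 0.41.

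PRELP, which links basement membrane perlecan to collagen, overlapped between the genotypes. The probe set 1416321_s_at stood at 9.41 and 9.97 in the knockout and at 10.01 and 8.85 in the wild type, a difference of 0.26 (SE 0.442, limma adjusted p = 0.859). The probe set 1416322_at stood at 7.94 and 7.91 against 7.97 and 6.82 (0.53, SE 0.401, adjusted p = 0.666). In both, wild-type isolation 1 was the highest array and wild-type isolation 2 the lowest, 1.15 to 1.16 log2 units apart. Optc, the family member on the other side of Prelp from Fmod along chromosome 1, was lowest in the knockout arrays, at 5.05 and 4.85 against 5.57 and 6.02 (-0.85, SE 0.205, adjusted p = 0.321).

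Decorin, the main dermatan sulfate proteoglycan of skin and a binder of both collagen and TGF-beta, was nearly equal in 3 arrays. Its probe set 1449368_at stood at 13.42 and 13.38 in the knockout and at 13.41 in wild-type isolation 1, and at 12.32 in wild-type isolation 2. The mean difference of 0.53 (SE 0.38, limma adjusted p = 0.649) became -0.01 without wild-type isolation 2. The dimmer probe set 1441506_at showed another order, with 6.34 and 5.32 in the knockout and 5.68 and 5.39 in the wild type (0.29, SE 0.37, adjusted p = 0.798). It was highest in knockout isolation 1, and its 2 lowest arrays were the isolations numbered 2. Dcn and Lum are neighbours on chromosome 10, and on the other side of Lum lies Kera, the family member keratocan, at 7.37 and 5.23 in the knockout and 7.17 and 4.21 in the wild type (0.61, SE 1.21, adjusted p = 0.883; -0.88 without wild-type isolation 2 and -0.46 without knockout isolation 1).

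Biglycan, the closest relative of decorin, which can also signal through Toll-like receptors when released, was level across the arrays. Its probe sets gave 13.74 and 13.88 against 13.91 and 13.67 (1416405_at), 13.53 and 13.65 against 13.65 and 13.41 (1448323_a_at), and 13.39 and 13.49 against 13.51 and 13.32 (1437889_x_at), knockout before wild type. The differences were 0.02 to 0.06 log2 units (limma adjusted p = 0.911 to 0.975), and the ranges over the 4 arrays were 0.19 to 0.24. With quantile normalization or cyclic loess the differences of 1416405_at and 1437889_x_at had the opposite sign, so no direction is given for Bgn. Bgn lies on the X chromosome, and the arrays also differed by 6.09 log2 units in Xist. For Bgn, as for every other member, differences by genotype and by sex-linked expression cannot be told apart here. The highest values of the 3 Bgn probe sets lay at -0.46 to -0.86 log2 units from the highest value on any array, and no test of a ceiling was made.

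Asporin, osteomodulin and osteoglycin, whose genes follow one another on chromosome 13, had small negative differences and a common order of arrays: both isolations numbered 2 lay below both isolations numbered 1. Their promoters are shown because these neighbours share that order. They are the 250 bases before the start site, all on the plus strand, at chr13:49544193-49544442 (Aspn), chr13:49582212-49582461 (Omd) and chr13:49607765-49608014 (Ogn), with the same motifs in capitals.
Aspn: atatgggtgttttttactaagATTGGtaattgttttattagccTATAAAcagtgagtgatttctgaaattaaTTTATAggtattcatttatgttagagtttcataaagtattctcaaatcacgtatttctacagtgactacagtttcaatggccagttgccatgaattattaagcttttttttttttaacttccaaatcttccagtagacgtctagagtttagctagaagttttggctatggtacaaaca
Omd: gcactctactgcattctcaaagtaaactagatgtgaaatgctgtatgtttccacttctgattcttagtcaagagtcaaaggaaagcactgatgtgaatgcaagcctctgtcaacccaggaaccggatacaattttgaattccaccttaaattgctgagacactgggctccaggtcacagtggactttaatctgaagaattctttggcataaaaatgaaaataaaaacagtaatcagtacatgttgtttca
Ogn: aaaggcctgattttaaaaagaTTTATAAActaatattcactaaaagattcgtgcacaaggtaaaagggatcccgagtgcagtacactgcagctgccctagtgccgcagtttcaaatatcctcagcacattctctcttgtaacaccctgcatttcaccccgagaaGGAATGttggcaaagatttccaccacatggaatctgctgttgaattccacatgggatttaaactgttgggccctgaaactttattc
TATAAA, a motif held by 12.4% of all promoters, was found 2 times in the Aspn window (positions -178 and -207 from the start) and 2 times, overlapping, in the Ogn window (positions -227 and -229), and none of the 5 motifs was found in the Omd window. GGAATG was found at position -86 from the Ogn start and in 12.6% of promoters. No motif was common to the 3 windows.

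Asporin, which carries no glycosaminoglycan chain and binds collagen and TGF-beta, stood at 12.64 and 11.90 in the knockout and 12.93 and 12.25 in the wild type by 1416652_at (-0.32, SE 0.354, limma adjusted p = 0.767). By 1448421_s_at it stood at 11.38 and 10.95 against 11.85 and 11.25 (-0.39, SE 0.275, adjusted p = 0.649). Knockout isolation 2 was the lowest array in both and wild-type isolation 1 the highest. Omd, also called osteoadherin and best known from bone, stood at 7.94 and 6.83 against 7.90 and 7.44 (1418745_at, -0.29, SE 0.415, adjusted p = 0.827). Ogn, also called mimecan, stood at 12.04 and 10.75 against 12.07 and 11.22 by 1419663_at (-0.25, SE 0.524, adjusted p = 0.888) and at 11.99 and 10.57 against 12.00 and 10.96 by 1419662_at (-0.20, SE 0.592, adjusted p = 0.927). The isolations numbered 1 of the genotypes were almost equal in Ogn and Omd, with knockout minus wild type at -0.03 to 0.04, and knockout isolation 2 lay 1.11 to 1.41 below knockout isolation 1. The differences of Omd and Ogn turned positive without knockout isolation 2, at 0.27 to 0.51, as did Aspn 1416652_at, at 0.05. Leaving out wild-type isolation 1 turned Aspn 1416652_at to 0.02 and the Ogn probe sets to 0.17 and 0.32, and brought Aspn 1448421_s_at to -0.08 and Omd to -0.06. Ecm2, which precedes Aspn on the chromosome, was under the filter on dim probe sets, at 2.88 to 3.52.

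Podocan, a class V member reported to restrain smooth muscle cell growth, had 1 probe set, 1435180_at. It stood at 7.26 and 7.87 in the knockout and at 7.28 and 6.86 in the wild type (0.49, SE 0.273, limma adjusted p = 0.573). Knockout minus wild type was -0.02 between the isolations numbered 1 and 1.01 between those numbered 2. The difference was 0.19 without knockout isolation 2 and 0.29 without wild-type isolation 2.

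The dependence on single isolations was then measured by leaving out each array. A difference is said to rest on an array when without it the sign changed or the size shrank by more than 1.5 times. By this rule 13 of 20 member probe sets rested on wild-type isolation 2, against 33.3% of all probe sets tested, and 5 rested on wild-type isolation 1 (27.1%), namely both Aspn, both Ogn and Omd. For the knockout, 10 rested on isolation 2 (40.8%) and 1 on isolation 1 (27.7%). The 13 were both Dcn, all 3 Bgn, both Prelp, Lum, Podn and 4 of the 6 Fmod probe sets. With the brightest probe set of each gene, 6 of 9 members rested on wild-type isolation 2, against 4364 of 13271 genes. For Bgn the rule says little, since its differences were near 0. The median over the 20 members was 0.39 with all arrays, -0.03 when wild-type isolation 2 was left out and 0.77 when wild-type isolation 1 was left out.

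Members varied in how much of their difference remained when wild-type isolation 2 was left out. A difference of at least 1 log2 unit was measured for 7 members, the 6 Fmod probe sets and Lum, and for 3.92% of all probe sets tested. Of these 7, 5 rested on wild-type isolation 2, against 20.6% of the 1060 probe sets of that size and 20.5% of the 616 that were higher in the knockout. The 7 come from only 2 genes. With the brightest probe set of each gene, both Fmod and Lum rested on that array, against 136 of 638 genes with a difference of that size. For Fmod the part that remained was 1.07 to 1.33 log2 units over the 6 probe sets, and without wild-type isolation 1 it was 2.10 to 3.09. The 2 Fmod probe sets that did not rest on that array by the rule, 1437324_x_at and 1438966_x_at, kept 1.12 of 1.61 and 1.22 of 1.77. Lum kept 0.41 of 1.54, Podn 0.29 of 0.49, and both Prelp probe sets and Dcn 1449368_at were at -0.32 to -0.01. With wild-type isolation 2 left out, the smallest limma adjusted p among the members was 0.553, and the single wild-type array was then assumed to vary like the knockout arrays.

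**Figure D2:**
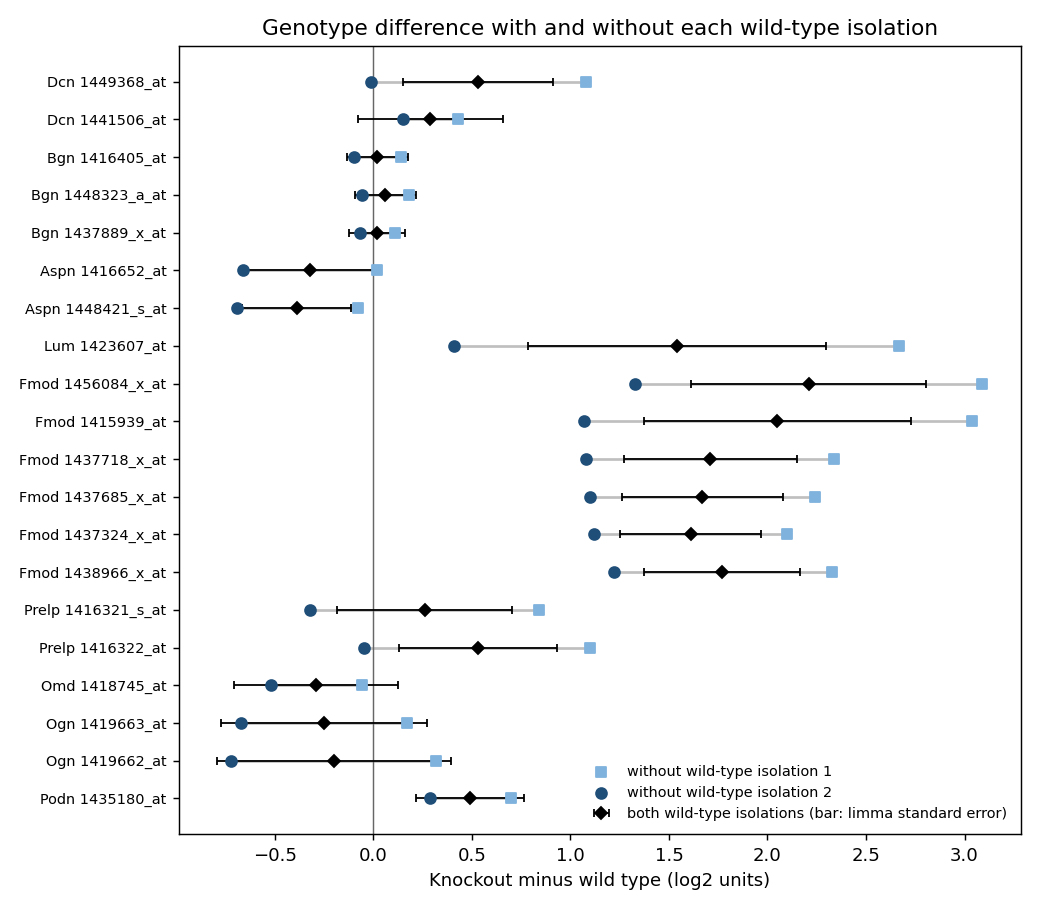
Knockout minus wild type in log2 units (horizontal axis) for each of the 20 probe sets. Black diamonds use all 4 arrays with the limma standard error as bar, pale squares leave out wild-type isolation 1 and dark circles leave out wild-type isolation 2. Without wild-type isolation 2 the 6 Fmod probe sets stood at 1.07 to 1.33 and Lum at 0.41, and Dcn 1449368_at and both Prelp probe sets lay at -0.32 to -0.01.

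The wild-type isolations were themselves far apart in these genes. Wild-type isolation 1 exceeded isolation 2 in all 20 probe sets, by a median of 1.01 log2 units against -0.01 over all probe sets tested. The gap passed 1 log2 unit in 10 of 20 members, against 1.8% of all probe sets. These were 5 of the 6 Fmod probe sets, Lum, both Prelp, Dcn 1449368_at and Ogn 1419662_at. With the brightest probe set of each gene, the gap passed 1 log2 unit in 4 of 9 members, against 294 of 13271 genes. Wild-type isolation 2 was the lowest of the 4 arrays in 14 members (24.0% of all probe sets), and knockout isolation 2 in the other 6 (32.0%). With 1 array on each side, the gap has no replicate check.

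The knockout isolations were also apart in some members. Knockout isolation 1 exceeded isolation 2 by over 1 log2 unit in 4 of 20 members, against 1.73% of all probe sets. These were both Ogn probe sets, Omd and the dim Dcn probe set 1441506_at, of which Ogn 1419662_at also passed 1 log2 unit in the wild type. The Fmod, Bgn and Podn probe sets and Prelp 1416321_s_at were lower in knockout isolation 1, with isolation 1 minus isolation 2 no lower than -0.61. Both isolations numbered 2 lay below both isolations numbered 1 in 8 of 20 members, against 14.7% of all probe sets, and these were both Dcn, both Aspn, both Ogn, Omd and Prelp 1416322_at. Nothing in the labels ties equally numbered isolations to each other.

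**Figure D3:**
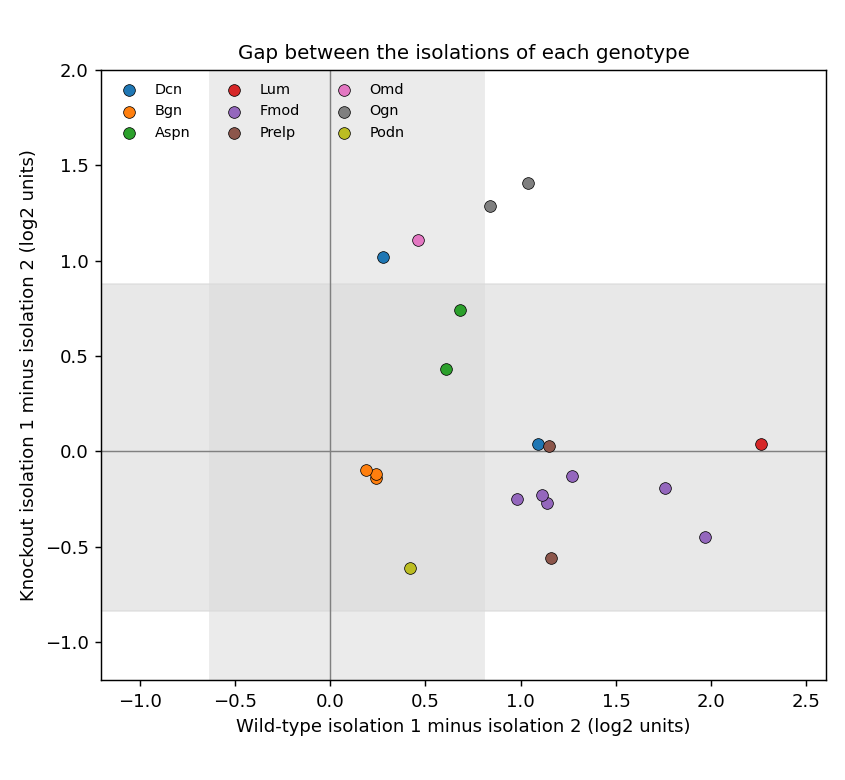
Gap between isolation 1 and isolation 2 in the wild type (horizontal axis, log2 units) against the same gap in the knockout (vertical axis), 1 point per member probe set coloured by gene. Shaded bands hold the central 95% of all 27022 probe sets tested, from -0.63 to 0.81 in the wild type and from -0.84 to 0.88 in the knockout. Lum and all 6 Fmod probe sets lie beyond the wild-type band and within the knockout band, and Ogn, at 0.84 to 1.04 and 1.29 to 1.41, lies beyond both.

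Markers of cell types moved with some of these arrays. Among 12 fibroblast markers that are not members, wild-type isolation 2 was the lowest array for 8, with a median level of 11.54, while wild-type isolation 1 had 12.24 and the knockout arrays 12.33 and 12.48. The range over the 12 genes was 7.57 to 13.93 for wild-type isolation 2, 9.17 to 14.13 for isolation 1, and 9.15 to 14.09 and 8.26 to 14.08 in the knockout. Pdgfra, the PDGF receptor of fibroblasts, stood at 12.30 and 12.31 against 11.93 and 10.35, and Dpt, the matrix protein dermatopontin, at 12.64 and 12.51 against 12.33 and 10.92. In both, as in Lum, wild-type isolation 2 was the lowest array by over 1 log2 unit. These genes were picked after their values were seen, and other fibroblast markers behaved otherwise. Vim (13.81) and S100a4 (13.74) were highest in wild-type isolation 2. Thy1 and Col1a2 ranged over only 0.2 and 0.16 log2 units. The 9 smooth muscle and pericyte markers were all lower in the knockout on average. Their medians were 7.17 and 7.48 in the knockout, 8.71 in wild-type isolation 1 and 9.57 in wild-type isolation 2. Ranges were 4.79 to 13.82, 3.81 to 13.74, 4.94 to 13.87 and 4.83 to 13.96, in that order of arrays. Myh11, the smooth muscle myosin heavy chain, stood at 6.55 and 5.48 against 8.71 and 9.57, so the wild-type medians were its own values. The sizes were uneven: Myh11 differed by -3.12, but Acta2 by -0.13 and Tagln by -0.12, and the genotypes overlapped in Tagln. Rgs5 was not higher in wild-type isolation 2, at 4.94 and 4.83 in the wild type. Whether the makeup of the cultures had a part in the member values was not tested, and in a bulk culture fewer cells of a type and less RNA per cell cannot be told apart.

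Markers of macrophages were high in the other wild-type array. The macrophage genes Ctss and C1qb stood at 10.07 and 9.46 in wild-type isolation 1 and at 3.37 to 4.58 in the other arrays, and the median over all 17 such markers in wild-type isolation 2 was 4.35. Without wild-type isolation 1 the Fmod differences were 2.10 to 3.09 and that of Lum was 2.67. Array medians of 10 keratinocyte markers were 3.52 to 3.87, those of 8 endothelial markers 3.47 to 3.83 and those of 8 skeletal muscle markers 3.53 to 3.85, and the melanocyte, adipocyte and Schwann lists had medians of 3.61 to 4.03, 4.96 to 6.51 and 5.01 to 5.65. Single markers of these lists stood apart: Dsp, the desmosomal protein desmoplakin, at 3.06 and 3.55 against 4.84 and 6.75, highest in wild-type isolation 2, and the lipase Lpl at 13.04 and 12.04 against 11.55 and 10.75, lowest there. All 5 Schwann cell markers had a positive difference, as did 48.7% of all probe sets tested. An unadjusted limma p under 0.05 was seen for 3 of them and for 10.8% of all probe sets. Erbb3 stood at 4.99 and 4.66 against 3.88 and 3.98 (limma adjusted p = 0.241), with wild-type values under the filter value of 4.17. Sox10 overlapped between the genotypes, at 5.45 and 5.80 against 5.56 and 5.56, and Mbp differed by only 0.19. The part of any of these markers in the member values was not tested. Among 10 tendon, cartilage and bone markers, where Fmod, Aspn and Omd are also abundant, array medians were 4.69 to 4.83. The tendon marker Tnmd stood at 11.06 and 11.12 in the knockout and 11.65 and 9.84 in the wild type, and Scx, a tendon transcription factor, at 4.21 and 3.73 against 4.81 and 4.81.

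Genes that build or meet these proteoglycans were examined by list, with the brightest probe set of each gene. No gene of these lists passed (limma adjusted p of 0.132 or more), against 0.0678% passing among all 13271 genes. The 9 members had a median of 0.26 on this basis, and -0.1 without wild-type isolation 2. The genotypes did not overlap in 2 of the members, Lum and Fmod, against 5968 of the 13271 genes. Of 13 collagens that form or join fibrils, 8 were positive, with a median of 0.11. Col14a1, a fibril-associated collagen, stood at 6.48 and 7.29 against 4.45 and 3.97 (2.67, SE 0.335, adjusted p = 0.132) and Col12a1 at -0.84. Wild-type isolation 2 was the lowest array for 10 of these 13 collagens, against 3445 of the 13271 genes. Among the 10 were Col1a1 (12.26 and 12.05 against 12.15 and 11.36) and Col6a2 (12.40 and 12.41 against 12.62 and 11.46), both chosen after their values were seen. The margin was very small in Col5a1 (12.50 and 12.63 against 12.72 and 12.49) and Col5a2 (13.71 and 13.55 against 13.75 and 13.54). Col1a1, Col1a2 and Col3a1 were also counted among the fibroblast markers, so the counts are not separate.

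Enzymes of the sugar chains gave medians near 0. Of 6 genes for the chain linker 3 were positive (median -0.08), with Pxylp1 at -0.70 and B3galt6 at 0.33 (0.13 without knockout isolation 2). Of 15 genes for chondroitin and dermatan sulfate, 5 were positive and 10 negative (median -0.05). The largest difference there was that of Chst11, a chondroitin sulfotransferase, at 7.33 and 7.17 against 8.30 and 8.22 (-1.01, SE 0.137, limma adjusted p = 0.154), followed by Chst7 at -0.64. Of 7 genes for keratan sulfate, the chain of lumican and fibromodulin, 3 were positive (median -0.08), and the sulfotransferase Chst1 stood at 5.09 and 5.23 against 5.67 and 6.97 (-1.16, SE 0.451, adjusted p = 0.467; -0.51 without wild-type isolation 2), with Chst5 at -0.25 (-0.08 without that array). Chst1 was highest in the array where Lum and Fmod were lowest, and so was Chst5. Other genes of the list differed from this: Chst2 stood at 7.94 and 7.93 in the wild type, and B4galt1 was lowest in that array, at 9.91. A link between these enzymes and the members was not tested.

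Proteases, growth factors and other proteoglycans completed the lists. Of 10 proteases and cofactors reported to process or cleave family members 3 were positive (median -0.09), with Htra1 at -1.41 (-0.79 without knockout isolation 2) and Mmp3 at 0.86 (-0.22 without knockout isolation 2 and -0.09 without wild-type isolation 2). Of 15 growth factors and receptors reported to bind them 5 were positive (median -0.24). Tgfb2 stood at 7.46 and 6.70 against 8.11 and 8.77 (-1.37, SE 0.356, limma adjusted p = 0.350) and Tgfb3 at 8.74 and 8.81 against 9.36 and 10.11 (-0.96, SE 0.279, adjusted p = 0.380; -0.58 without wild-type isolation 2). Of 14 other proteoglycans 5 were positive (median -0.17), with the glypican Gpc3 at 2.34 (1.21 without wild-type isolation 2) and the lubricant Prg4 at -1.57 (-0.89 without knockout isolation 2). Of the other family members, 3 of 7 on the array lay above the filter, and their values for Optc and Kera are given above, while Chadl differed by less than 0.01.

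**Figure D4:**
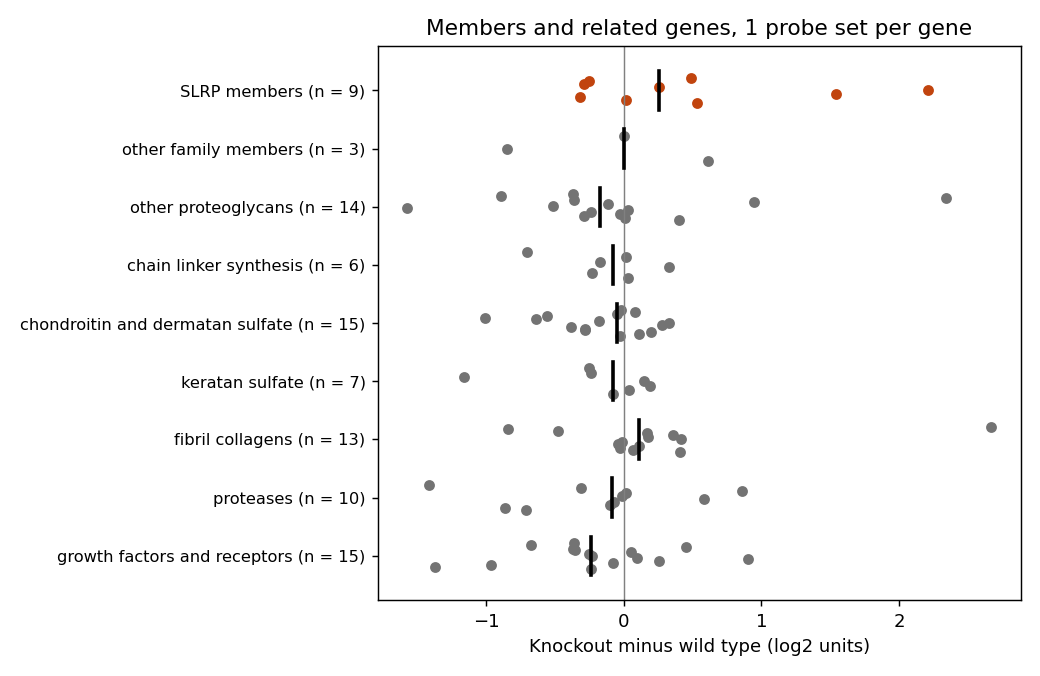
Knockout minus wild type in log2 units (horizontal axis) for the 9 members and 8 lists of related genes, 1 point per gene tested, with black bars at list medians and the number of genes beside each name. The member median of 0.26 stands right of the medians of the 8 lists, which lie between -0.24 and 0.11, and Fmod at 2.21 and Lum at 1.54 are the rightmost members. Without wild-type isolation 2, which is not drawn, the member median was -0.1 and those of the lists were -0.62 to 0.01.

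The genes most like Fmod over the 4 arrays were sought by the distance between centred log2 values, for its probe set 1415939_at. The 3 nearest were Ifi27l2a, an interferon-inducible gene (root mean square distance 0.164), Mfap4, a microfibril-associated glycoprotein (0.168), and Gpc3 (0.183). Mfap4 stood at 10.46 and 10.62 in the knockout and 9.30 and 7.18 in the wild type. All 3 were lowest in wild-type isolation 2 and highest in knockout isolation 2, and the difference of Mfap4 without wild-type isolation 2 was 1.23. With 4 arrays many genes can share an order, and nothing is drawn from this likeness.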

How the data were processed

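The deposited table holds 1 value for each probe set on each array; the authors' unit was taken as log2 from the range of values. Per the submitters' processing notes the values came from Affymetrix Expression Console; for its version, algorithm and log base, nothing is stated here (not given in the sources used). The file has no detection calls. If the base was not 2, folds would change and orders would not.

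Symbols came from the platform annotation, updated by Entrez identifier through RefSeq (GRCm38.p6). Non-control probe sets with a mean above the 40th percentile (log2 value 4.17) were tested with limma 3.58.1 in R 4.3.3 (lmFit, eBayes, no block; 2 residual and 2.6 prior degrees of freedom), with Benjamini-Hochberg adjustment over 27022 probe sets. List genes were represented by their probe set with the highest mean. In 10 simulated data sets of 27022 probe sets, the test recovered 0.6%, 48.6%, 71.8% and 83.4% of probe sets changed by 1, 2, 3 and 4 log2 units. The changed probe sets were drawn at random from all those tested, each with its own spread. The median size of the wild-type gap was 1.01 log2 units in the members and 0.16 over all probe sets tested, so these shares do not apply to the members. The number of arrays limits the precision. Named were Adam9, all members, in each pathway list the genes with the 2 largest differences where none passed, sex-linked genes, Ctss and C1qb, family neighbours on the chromosome, and the 3 genes nearest in profile. Any further gene, those of the cell type marker lists included, was named after its value was seen. The members and lists were chosen with earlier results of these data known. Promoters were matched for 7 of 9 members. Results were also computed with a block for isolation number, other filters and normalizations, gene-level values, leaving out _x_at and _s_at probe sets, and leaving out each array.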

Additional observations from a re-analysis of the deposited data

How the results depend on the processing

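With each alternative tried, 0 member probe sets passed limma's test, with smallest adjusted p from 0.244 to 0.553. Over all probe sets, 14 were called, 3 higher and 11 lower, with sex-linked genes in both directions. With the isolation number as a replicate block 0 were called (0 higher, 0 lower; 2839 at an unadjusted p under 0.05), and leaving out any 1 array gave 0 to 0 (1395 to 4389 unadjusted). The labels give equally numbered arrays nothing in common but the number. The deviations of isolations numbered 1 correlated at 0.069 over probe sets, which cannot tell whether those cultures were handled together. A stricter filter gave 9 calls (7 lower), 1 probe set per gene 9 (7 lower) and the mean per gene 6 (1 higher, 5 lower), each with fewer features tested. Calls on the higher side were 6 with median centring, 5 with cyclic loess and 1 without _x_at and _s_at probe sets. The cause of these shifts was not tested.

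The median member difference of 0.39 ranged from -0.03 to 0.77 when 1 array was left out, and its other alternatives gave 0.18 to 0.49. Bgn changed sign with quantile normalization (-0.02 for 1416405_at, -0.03 for 1437889_x_at) and with cyclic loess (-0.01 and -0.00086). Leaving out 1 array turned the sign of these members, with ranges of -0.01 to 1.08 for Dcn 1449368_at and -0.22 to 0.80 for 1441506_at, -0.10 to 0.14, -0.06 to 0.18 and -0.07 to 0.11 for Bgn 1416405_at, 1448323_a_at and 1437889_x_at, -0.69 to 0.05 for Aspn 1416652_at, -0.32 to 0.84 and -0.05 to 1.10 for Prelp 1416321_s_at and 1416322_at, -0.84 to 0.27 for Omd 1418745_at, and -0.90 to 0.39 and -0.91 to 0.51 for Ogn 1419663_at and 1419662_at. The probe sets of Fmod, Lum, Podn and Aspn 1448421_s_at kept their direction in every alternative in which they were fitted. The file gives no background level, so folds of the dimmer probe sets may be compressed.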
